A study of Mus musculus with 24 samples.

Results

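The genes described here are 10 mouse genes that mark or carry reactive gliosis, chosen by symbol out of the 46603 annotated genes in the deposited count tables. They are Gfap, Stat3, Socs3, Edn2, Ednrb, Cd44, Serpina3n, Lcn2, Ccl2 and Timp1, and each symbol matched 1 Ensembl identifier. They were followed in mouse retinal organoids (MROs), small pieces of retinal tissue grown from embryonic stem cells, on culture days 20, 22, 25 and 30 (D20 to D30), with 6 individually sequenced organoids per timepoint. All 24 organoids came from the wildtype mouse embryonic stem cell line E14Tg2a and from 1 independent experiment, were grown by the trisection protocol in medium with serum after an early pulse of a synthetic retinoid, and are controls that received solvent only. Their genotype and treatment labels are the same at all timepoints, and the titles of the D20 organoids lack only the control tag that the later ones carry. Each whole organoid was lysed, so a value is an average over all of its cells, and fewer cells of a type and less RNA per cell cannot be told apart. Neither genotype nor treatment varied, and the labels do not say which organoids came from the same starting aggregate, so p-values measure the spread between organoids of 1 experiment. The 10 genes and all gene lists below were chosen with earlier results of these data known. Their counts beside the share of all annotated genes are therefore descriptions and no independent evidence.

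Reactive gliosis is the response of glial cells to injury, disease or stress of the tissue. In the retina it is led by the Müller glia, radial cells that span all layers and support the neurons, and a rise of the intermediate filament protein GFAP is its best known sign. Cytokines of the interleukin-6 family bind receptors that share the gp130 subunit, Janus kinases then activate the transcription factor STAT3, and SOCS3 is induced as a brake on the same pathway, while endothelin 2 released by photoreceptors can reach endothelin receptor B on Müller glia.

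Between 13634846 and 19477108 reads per organoid were assigned to a feature, and 3 reads correspond to 0.154 to 0.22 CPM (counts per 1000000 assigned reads), a limit that covers counting error only. Levels are given as normalized CPM, that is CPM computed with library sizes scaled by TMM, and changes as log2 fold changes with their standard error (SE) from edgeR's quasi-likelihood test, called at an adjusted p below 0.01 over 46949 features. Of the 10 genes, 7 averaged 10 or more size-scaled reads and entered the test, Edn2 only narrowly with 10.8, while Timp1 (8.89), Lcn2 (2.3) and Ccl2 (0.62) did not and are described by their reads. Retinal identity was plain in all groups, with all 8 retinal markers above the filter and Crx, a photoreceptor transcription factor, at 755 ± 133 normalized CPM at D30 (SD, n = 6).

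The steps of the time course were unequal. From D20 to D22 none of the 7 tested genes was called by edgeR, where 3.32% of the 16253 tested annotated genes were called, although 3 of the 7 had an unadjusted p below 0.05, as did 24.9% of those genes, and DESeq2 also called 0. From D22 to D25 only Stat3 was called, higher at D25, where 7.33% of annotated genes were called higher. From D25 to D30 5 genes were called, all higher (Gfap, Stat3, Edn2, Ednrb and Cd44), where 4.55% of annotated genes were called higher, a count that fell to 3 without D25 replicate 2, 5 or 6 or D30 replicate 1, 2 or 4 and to 2 without D30 replicate 5. Over longer intervals 3 were called higher at D25 than at D20 (Gfap, Stat3 and Serpina3n), where 14.8% of annotated genes were, all 7 at D30 than at D22, where 24% were, and 6 of the 7 at D30 than at D20, Socs3 being the exception, where 25.1% were. Organoids of the later timepoint all lay above those of the earlier one for 2 genes in D25 against D20 (13.1% of annotated genes), 4 in D30 against D22 (14.4%) and 5 in D30 against D20 (17%). The joint test of all 4 timepoints called all 7, where 43.9% of annotated genes were called. The comparisons share organoids and are not independent of each other, and Edn2 passed the filter through its D30 reads alone, so it had to differ at D30 and adds nothing to these counts: without it 4 of 6 were called from D25 to D30, 5 of 6 from D20 to D30 and 6 of 6 in the joint test.

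**Figure D1:**
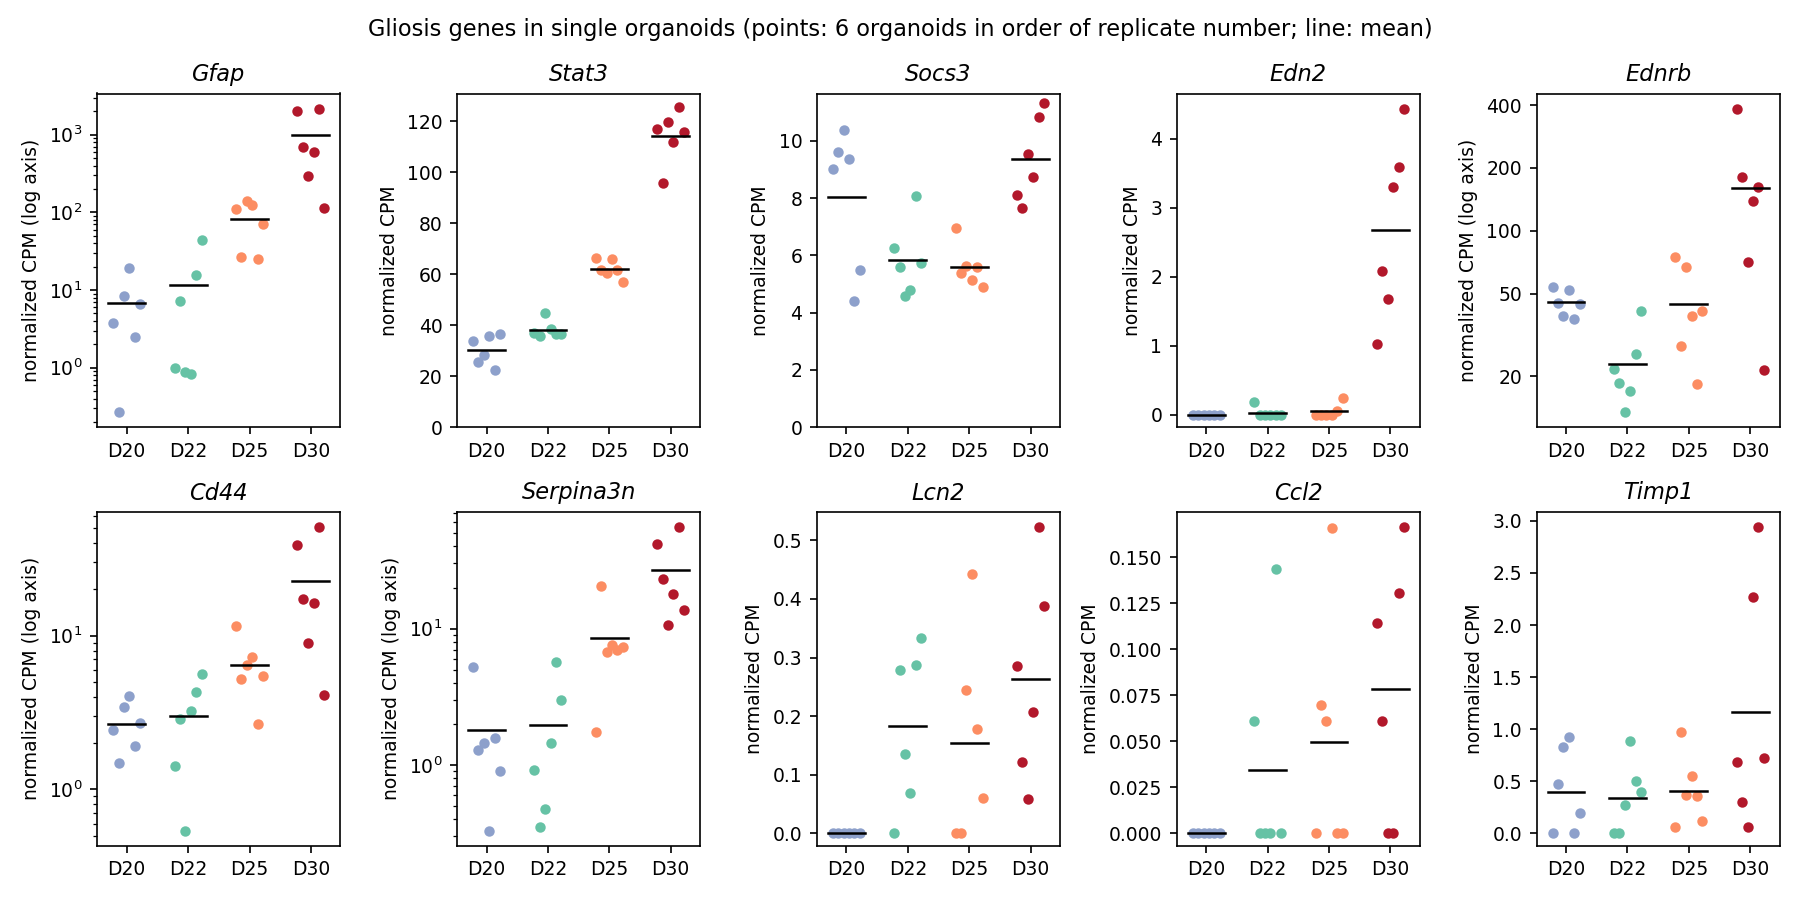
Normalized CPM of the 10 genes (vertical axis, logarithmic for Gfap, Ednrb, Cd44 and Serpina3n) in each of the 6 organoids at D20, D22, D25 and D30 (horizontal axis), with a line at the mean. Stat3 rises in tight groups, from a mean of 30.4 at D20 to 114 at D30, whereas the D30 organoids of Gfap lie between 114 and 2163 and Edn2 is at 0 in all D20 organoids.

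Gfap (ENSMUSG00000020932, GRCm38 chromosome 11, 102887336 to 102900912, minus strand) encodes the glial fibrillary acidic protein, an intermediate filament of astrocytes and of reactive Müller glia. It is the 1 gene of the 10 that the study itself named for these organoids. Lowest, median and highest values were 0.269, 5.19 and 19.1 normalized CPM at D20 and 0.821, 4.08 and 44.2 at D22. They were 25.2, 90.6 and 141 at D25 and 114, 644 and 2163 at D30. Each D20 organoid held 4 to 289 reads on Gfap and each D30 organoid 2050 to 35624. The D25 organoids were all higher than the D20 organoids and the D30 organoids all higher than the D22 organoids, whereas neighbouring timepoints overlapped: 4 of 6 D25 organoids exceeded the highest at D22 and 5 of 6 D30 organoids exceeded the highest at D25.

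The mean of Gfap over 6 organoids was 6.76 ± 6.68 normalized CPM at D20 (SD), then 11.6 ± 17.0 on D22, 83.3 ± 50.2 on D25 and 982 ± 890.1 on D30, a ratio of means of 145 between D30 and D20. The log2 fold change was 0.77 (SE 0.78) from D20 to D22 and 2.85 (SE 0.78) from D22 to D25, and neither passed the threshold (edgeR adjusted p = 0.678 and 0.0145). It was 3.56 (SE 0.78) from D25 to D30 and 7.18 (SE 0.93) from D20 to D30, and both passed (edgeR adjusted p = 0.0032 and 3e-07). The step from D22 to D25 passed when D22 replicate 6 was left out (4.06, adjusted p = 0.0017) or D30 replicate 6 (2.85, adjusted p = 0.008). The step from D25 to D30 missed the threshold without D25 replicate 2, 5 or 6 or without D30 replicate 5, with adjusted p-values of 0.0102 to 0.0116 and log2 fold changes of 3.17 to 3.53. The lincRNA Gm26668 spans Gfap on the other strand without sharing exon bases and held 0 to 31 reads per organoid.

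Stat3 (ENSMUSG00000004040, chromosome 11, 100885098 to 100939540, minus strand), the transcription factor downstream of the interleukin-6 family receptors, differed between timepoints by small amounts with little spread. Its lowest, median and highest values were 22.5, 31.0 and 36.7 normalized CPM at D20, 35.8, 36.8 and 44.6 at D22, 57.1, 61.6 and 66.2 at D25, and 95.6, 116 and 126 at D30. The organoids of D22, D25 and D30 did not overlap, which holds for 7.11% of annotated genes in the upward direction from D22 to D25 and for 4.46% from D25 to D30, and only D20 and D22 overlapped. The log2 fold change was 0.33 (SE 0.11) from D20 to D22, which did not pass (edgeR adjusted p = 0.0702). It was 0.70 (SE 0.11) from D22 to D25 and 0.88 (SE 0.10) from D25 to D30 (edgeR adjusted p = 5.5e-05 and 1.1e-06). From D20 to D30 Stat3 rose by 1.91 (SE 0.11) on the log2 scale, a ratio of means of 3.75 (edgeR adjusted p = 1.4e-14). Each of these calls held in every fit that left out 1 organoid. Stat3 shares 72 exon bases with Stat5a on the opposite strand, which had at most 57 reads in any organoid where Stat3 had at least 317.

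Socs3 (ENSMUSG00000053113, chromosome 11, 117966079 to 117970047, minus strand), the feedback inhibitor of that pathway, did not follow Stat3. Lowest, median and highest values were 4.41, 9.19 and 10.4 normalized CPM at D20, 4.59, 5.65 and 8.06 at D22, 4.88, 5.48 and 6.95 at D25, and 7.65, 9.15 and 11.3 at D30. At D20 replicates 1 to 4 lay between 9.02 and 10.4 and replicates 5 and 6 at 4.41 and 5.51, so D20 and D30 overlapped. All 6 D30 organoids were above all D25 organoids. The log2 fold change from D25 to D30 was 0.74 (SE 0.20), which did not pass the threshold in edgeR (adjusted p = 0.0175) but passed in DESeq2 (adjusted p = 0.0023). From D22 to D30 it was 0.68 (SE 0.20) and passed (edgeR adjusted p = 0.0084), a call lost in 9 of the 24 fits without 1 organoid, with adjusted p-values up to 0.0226. From D20 to D30 the difference was 0.22 (SE 0.20, edgeR adjusted p = 0.41).

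**Figure D2:**
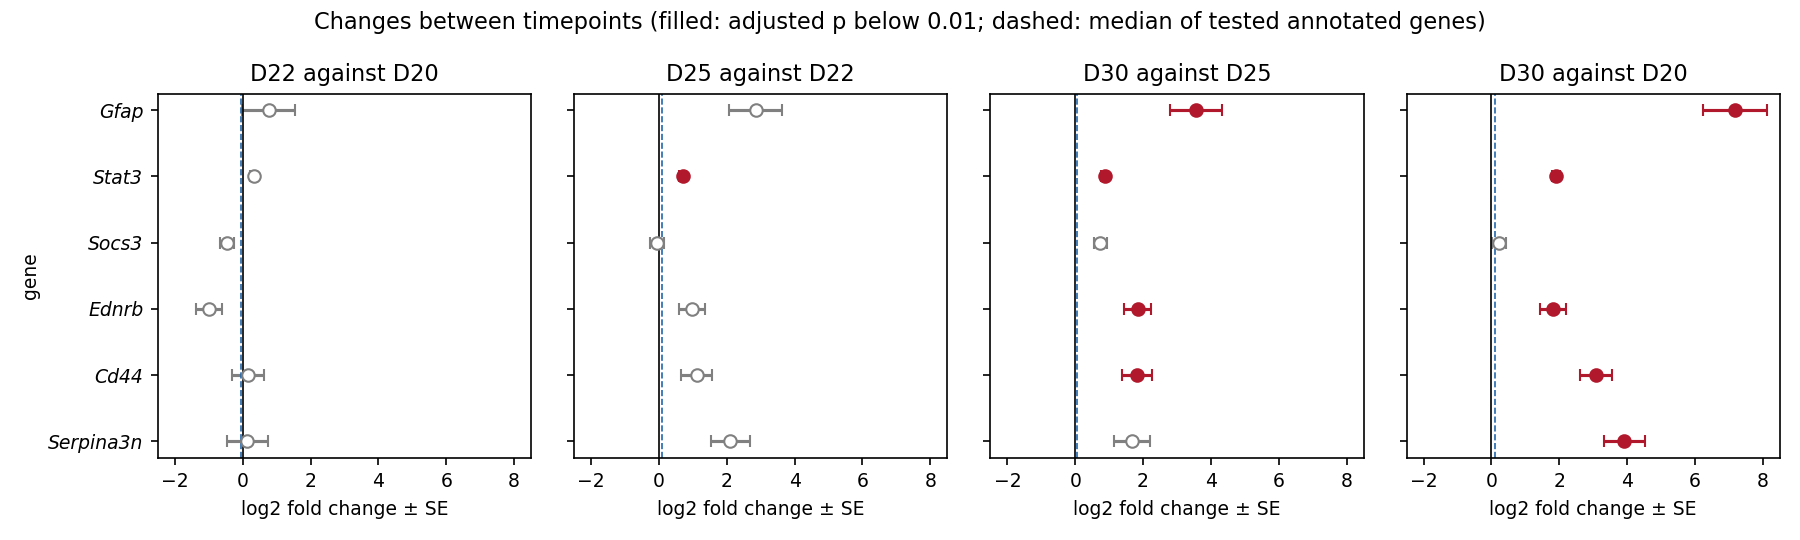
Log2 fold change with its standard error (horizontal axis) of 6 tested genes (vertical axis) for the 3 steps of the time course and for D30 against D20, with filled points where the edgeR adjusted p is below 0.01 and a dashed line at the median of the tested annotated genes. Stat3 is the 1 filled point from D22 to D25, and Gfap reaches 7.18 over the whole interval while Socs3 stays at 0.22.

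The 300 bases around the start of a gene, 250 before and 50 after it, were read from RefSeq (GRCm38.p6) for 9 of the 10 genes. They were scanned for the letters TTCNNNGAA, the core of the sites that STAT proteins bind. The motif is its own reverse complement, so 1 search covers both strands, and TTCCNGGAA is a narrower form of it whose matches count towards the wider one as well. Of all 32851 RefSeq promoter windows, 8.3% held the wider form and 1.15% the narrower one. Of the 9 windows, that of Gfap held both forms and that of Socs3 held the wider form, and those 2 are printed because Gfap had the largest fold change of the genes with reads at D20 and Socs3 is the feedback gene of the pathway. Capitals mark the match. It begins 2 bases before the RefSeq start in Gfap, whose GENCODE span reaches further upstream than this window, and 154 bases before it in Socs3. A match of letters describes the window and is no evidence of binding.
Gfap, chr11:102897151-102897450, minus strand: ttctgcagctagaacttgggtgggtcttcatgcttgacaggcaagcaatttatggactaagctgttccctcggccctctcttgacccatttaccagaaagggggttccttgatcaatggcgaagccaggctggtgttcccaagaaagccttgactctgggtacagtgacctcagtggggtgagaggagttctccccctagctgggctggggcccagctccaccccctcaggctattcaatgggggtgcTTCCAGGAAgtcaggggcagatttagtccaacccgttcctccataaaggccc
Socs3, chr11:117969317-117969616, minus strand: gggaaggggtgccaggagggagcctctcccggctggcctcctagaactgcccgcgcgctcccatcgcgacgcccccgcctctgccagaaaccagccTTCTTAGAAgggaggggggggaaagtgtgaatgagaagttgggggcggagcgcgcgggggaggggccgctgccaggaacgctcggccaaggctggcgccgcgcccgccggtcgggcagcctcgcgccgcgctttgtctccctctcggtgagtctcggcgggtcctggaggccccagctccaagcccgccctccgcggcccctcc

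Among the other 27 listed genes of the interleukin-6 family and its STAT3 pathway, some receptors and downstream genes rose and others did not. Of its 7 ligands 3 could be tested and none of those passed. As the background for this and the following lists, 25.1% of tested annotated genes were called higher and 16.7% lower at D30 than at D20. A listed gene with a base mean under 10 over D20 to D25 entered the test only through its D30 reads and had to be high at D30, so list counts are also given without such genes, and of the annotated genes that remain in that way 24.4% were called higher. The medians of the lists include any such genes. Of the 20 that could be tested from D20 to D30, 11 rose, 1 fell and 8 did not pass, with a median log2 fold change of 0.85 against 0.10 over all tested annotated genes. Without Cntf, which entered through D30 alone, 11 of 19 rose. Osmr, the oncostatin M receptor, went from 0.131 ± 0.193 to 9.51 ± 3.09 normalized CPM (log2 fold change 6.06, edgeR adjusted p = 2.2e-09). Cebpd, a transcription factor induced by STAT3, went from 2.92 ± 1.16 to 37.2 ± 10.1 (3.67, edgeR adjusted p = 2e-10). Il6st, which encodes gp130, went from 35.7 ± 4.67 to 184 ± 70.9 (2.36, edgeR adjusted p = 1.4e-12). Jak2 (0.26) and Il11ra1 (0.16), the best expressed of those that did not pass, had adjusted p-values of 0.0786 and 0.459. The feedback genes Cish (-0.16) and Socs2 (0.14), named after their values were seen, did not pass either (edgeR adjusted p = 0.594 and 0.662). The gene that fell was Cntfr, a receptor subunit for ciliary neurotrophic factor, which is named after its value was seen (-1.27, edgeR adjusted p = 2.2e-06). Of the 7 ligands, Osm had 0 reads in all organoids, Il6 at most 7, Il11 at most 20 and Lif at most 31, and these 4 were below the filter. Of those tested, Clcf1 (-0.23), Cntf (1.17) and Ctf1 (0.21) did not pass (edgeR adjusted p = 0.784, 0.0519 and 0.791), with means of 1.09 to 1.69 normalized CPM at D30. All ligands are named after their values were seen.

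Edn2 (ENSMUSG00000028635, chromosome 4, 120161206 to 120167360, plus strand), the endothelin 2 ligand, appeared at D30. It had 0 reads in all 6 D20 organoids, 3 reads in 1 organoid at D22, and 1 and 4 reads in 2 organoids at D25. At D30 the 6 organoids in order of replicate number had 18, 34, 29, 48, 55 and 80 reads, or 1.03, 2.08, 1.68, 3.30, 3.59 and 4.43 normalized CPM. Every D30 organoid was above every earlier one. Pooled over organoids, 264 reads at D30 stood against 5 at D25, a ratio of 52.9 with a 95% counting interval of 22.4 to 164 (exact binomial), and against 3 at D22, a ratio of 79.1 (26.8 to 386). These intervals cover counting error only and leave out the spread between organoids. Against D20 the mean was at least 13.2-fold higher, taking 3 reads per library as the floor. The step from D25 to D30 was called (edgeR adjusted p = 8.9e-05), but without D30 replicate 2, 4, 5 or 6 Edn2 fell below the filter and had no test.

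Ednrb (ENSMUSG00000022122, chromosome 14, 103814625 to 103844402, minus strand), the endothelin receptor B found on Müller glia and astrocytes, had a dip before its rise. Lowest, median and highest values were 37.9, 44.9 and 53.7 normalized CPM at D20, 13.5, 20.1 and 41.0 at D22, 18.4, 40.2 and 74.5 at D25, and 21.5, 150.3 and 385 at D30. No D22 organoid exceeded the highest at D20, while at D30 5 of 6 did and the sixth, replicate 6, was below all D20 organoids. The fall from D20 to D22 was -0.99 (SE 0.39) and did not pass (edgeR adjusted p = 0.152), although it passed in a fit of those 2 timepoints alone (adjusted p = 0.0022). The rise from D22 to D25 was 0.97 (SE 0.39, edgeR adjusted p = 0.109). From D25 to D30 it was 1.84 (SE 0.39, edgeR adjusted p = 0.0025), a call lost without D30 replicate 1 (1.38, adjusted p = 0.0139) and in a fit of those timepoints alone (adjusted p = 0.0223). D30 against D20 gave 1.82 (SE 0.39, edgeR adjusted p = 0.00039).

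The rest of the endothelin system did not move one way. Of 5 further listed genes 4 were tested from D20 to D30, and 1 rose, 1 fell and 2 did not pass. The gene that rose, Ednra, entered through its D30 reads alone, as did Edn1, and without both 0 of 2 rose. Ece1, the enzyme that cuts endothelins to their active form, went from 109 ± 15.5 normalized CPM at D20 to 24.5 ± 4.50 at D30 (log2 fold change -2.16, edgeR adjusted p = 1.8e-12). Before that its mean was 165 at D22 and 120.2 at D25, with steps of 0.60 and -0.46 that did not pass (edgeR adjusted p = 0.0135 and 0.0385), and it fell from D25 to D30 (-2.29, edgeR adjusted p = 2.8e-11). Ednra, the other endothelin receptor, went from 0.341 ± 0.332 to 2.27 ± 1.37 (2.71, edgeR adjusted p = 0.0049). Ece2 (0.92) and Edn1 (1.24) had adjusted p-values of 0.0103 and 0.16, and Edn3 had at most 14 reads and no test. Edn2 and Ece1 thus moved in opposite directions from D25 to D30.

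Cd44 (ENSMUSG00000005087, chromosome 2, 102811141 to 102901665, minus strand), a receptor for hyaluronan found on Müller glia and astrocytes, rose late. Lowest, median and highest values were 1.48, 2.57 and 4.02 normalized CPM at D20, 0.540, 3.04 and 5.65 at D22, 2.67, 5.98 and 11.6 at D25, and 4.10, 16.8 and 50.7 at D30. All D30 organoids exceeded all D20 organoids, but replicate 6 of D30 lay within the ranges of D22 and D25. From D20 to D30 the log2 fold change was 3.09 (SE 0.48, edgeR adjusted p = 5.2e-06). From D25 to D30 it was 1.81 (SE 0.45) and passed narrowly (edgeR adjusted p = 0.0093), and the call was lost in 17 of the 24 fits that left out 1 organoid, with the smallest change without D30 replicate 5 (1.42, adjusted p = 0.0475). From D22 to D25 it was 1.11 (SE 0.46, edgeR adjusted p = 0.125).

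Serpina3n (ENSMUSG00000021091, chromosome 12, 104406729 to 104414329, plus strand), a secreted serine protease inhibitor and common marker of reactive astrocytes, was higher at D25 and D30 than at D20. Lowest, median and highest values were 0.330, 1.36 and 5.24 normalized CPM at D20, 0.349, 1.18 and 5.68 at D22, 1.74, 7.17 and 20.4 at D25, and 10.5, 20.4 and 55.4 at D30. At D25 5 of 6 organoids exceeded all of D22, and at D30 all organoids exceeded all of D20 and D22. Mean levels were 1.79 ± 1.75, 1.98 ± 2.05, 8.47 ± 6.26 and 27.0 ± 17.7 at the 4 timepoints (SD, n = 6).

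The changes of Serpina3n from D22 to D25 (2.1, SE 0.57) and from D25 to D30 (1.68, SE 0.53) both missed the threshold (edgeR adjusted p = 0.0149 and 0.05), while D25 against D20 (2.24, SE 0.58) and D30 against D20 (3.91, SE 0.60) passed (edgeR adjusted p = 0.0044 and 4.3e-06). The step from D22 to D25 passed without D20 replicate 1, D22 replicate 5 or D25 replicate 1, with adjusted p-values of 0.0036 to 0.0087. The call of D25 against D20 was lost without D25 replicate 2 (1.77, adjusted p = 0.0231) and without any of D20 replicates 2 to 6 (adjusted p = 0.0107 to 0.0129). Serpina3n belongs to a cluster of near-identical genes. Reads that aligned to several places were set apart and counted on no gene, so its level may be too low. The counts of its relatives do not show how many such reads were lost. None of its 10 listed relatives passed the filter, 4 of them had 0 reads throughout, and the largest, Serpina3m, reached 1.18 ± 0.895 normalized CPM at D30.

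The 3 genes below the filter remained scarce. Timp1 (ENSMUSG00000001131, chromosome X, 20870166 to 20874735, plus strand), a secreted inhibitor of matrix metalloproteinases, had 0 to 14 reads per organoid at D20, D22 and D25. At D30 the 6 organoids held 12, 5, 1, 33, 45 and 13 reads, so only replicates 4 and 5 exceeded every earlier organoid. Without the filter the difference between D30 and D20 did not pass (log2 fold change 1.5, SE 0.83, edgeR adjusted p = 0.21). Timp1 lies inside Syn1, a gene on the opposite strand that held 16 to 252 reads per organoid, with a mean of 2.29 ± 1.04 normalized CPM at D20 and 9.37 ± 4.60 at D30, and the strand setting of the counting is not given in the sources used here. Whether reads of Syn1 were counted on Timp1 was not tested.

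Lcn2 (ENSMUSG00000026822, chromosome 2, 32384633 to 32388252, minus strand), a secreted carrier of iron-binding molecules and a strong marker of inflammatory gliosis, had 0 reads in all D20 organoids and at most 8 in any other. Its 26 reads over the D30 organoids gave a mean at least 1.3-fold above the floor of 3 reads per library at D20. Without the filter that comparison passed (edgeR adjusted p = 0.0071), and D30 against D25 did not (adjusted p = 0.906). Ccl2 (ENSMUSG00000035385, chromosome 11, 82035571 to 82037453, plus strand), a chemokine that attracts monocytes, had at most 3 reads in any of the 24 organoids, which is not distinguishable from absence at this depth.

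Per kilobase of exon, the order of the levels changed with time. At D20 Ednrb stood first with 10.7 ± 1.53 normalized CPM per kilobase, above Stat3 (3.19 ± 0.612) without overlap of the organoids, and Stat3, Socs3 (2.78 ± 0.851) and Gfap (1.60 ± 1.58) overlapped each with the next. At D25 Gfap stood first (19.7 ± 11.9) but overlapped with Ednrb (10.5 ± 5.13). At D30 Gfap reached 233 ± 211, Ednrb 37.5 ± 29.4, Serpina3n 13.1 ± 8.59 and Stat3 11.98 ± 1.07, each overlapping with the next in order. Stat3 was above Cd44 (3.36 ± 2.68) in all D30 organoids, and Cd44, Socs3 (3.24 ± 0.511), Edn2 (1.84 ± 0.886) and Timp1 (1.31 ± 1.31) overlapped in turn. Lcn2 (0.101 ± 0.0657) and Ccl2 (0.0692 ± 0.0613) came last.

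Other lists of reactive glia held genes that rose and genes that did not. Of 9 genes described as raised in all reactive astrocytes, 5 were tested from D20 to D30, of which 4 rose and 1 fell. Those were Osmr, already described, Vim, an intermediate filament (0.72, edgeR adjusted p = 0.00071), S1pr3, a receptor for sphingosine 1-phosphate (0.67, edgeR adjusted p = 0.00081), and Nes, a filament of progenitor cells, which fell (-0.82, edgeR adjusted p = 1.8e-05). The fourth that rose, Cp, is named after its value was seen (0.49, edgeR adjusted p = 0.00071). The median log2 fold change of these 5 was 0.67.

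Of the 11 genes of the list called A1, described after inflammatory injury, 9 were tested, of which 5 rose, 1 fell and 3 did not pass. Gbp2 and Srgn entered through D30 alone, and without them 3 of 7 rose. The median of 1.38 is over all 9 and so includes both of these genes, which had to be high. Gbp2, a guanylate-binding protein, went from 0.261 ± 0.305 to 5.73 ± 4.21 normalized CPM (edgeR adjusted p = 2.1e-05) and Fbln5, a matrix protein, from 0.298 ± 0.516 to 4.57 ± 3.72 (edgeR adjusted p = 0.00014). Srgn was called as well (edgeR adjusted p = 6e-05), but 5 of the D30 organoids held 0.232 to 2.06 normalized CPM and replicate 6 held 57.9, so 1 organoid sets its mean. Serping1, an inhibitor of complement, fell (-2.71, edgeR adjusted p = 1.9e-09). Fkbp5 (-0.20) and Amigo2 (0.34) did not pass, with adjusted p-values of 0.442 and 0.203.

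Of the 12 genes of the list called A2, described after ischaemia, 9 were tested, of which 4 rose, none fell and 5 did not pass. Tm4sf1 and Emp1 entered through D30 alone, and without them 2 of 7 rose. The median of 0.68 is over all 9 and so includes both of these genes. Tm4sf1 went from 0.0662 ± 0.0846 to 3.73 ± 2.87 normalized CPM (edgeR adjusted p = 2.6e-06), Emp1 from 0.0667 ± 0.0723 to 2.42 ± 2.68 (edgeR adjusted p = 9.8e-05) and Cd109 from 0.640 ± 0.662 to 7.98 ± 8.23 (edgeR adjusted p = 0.00016). S100a10, a calcium-binding protein, rose by 2.04 on the log2 scale (edgeR adjusted p = 3.1e-06), while Ptx3 (0.68) and B3gnt5 (-0.50) had adjusted p-values of 0.0866 and 0.275. The A1 and A2 lists were thus both mixed, and no test of a difference between them was made.

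Of 20 genes of the NF-kB pathway and of chemokines, the company of Ccl2, 10 were tested and 10 were below the filter, 8 of which never exceeded 10 reads, among them Tnf, Ccl3, Ccl4 and Cxcl2 with 0 reads throughout. From D20 to D30 4 rose, 1 fell and 5 did not pass, and without Il1r1, which entered through D30 alone, 3 of 9 rose. The median of 0.54 includes Il1r1. Il1r1, the interleukin-1 receptor, went from 0.136 ± 0.125 to 3.53 ± 0.742 normalized CPM (4.62, edgeR adjusted p = 3.7e-06). Cxcl12 (2.07), Vcam1 (1.94) and Tnfaip3 (1.31), a brake on NF-kB, had edgeR adjusted p-values of 0.002, 7.3e-07 and 2.6e-06. Nfkbia and Rela, the best expressed of those that did not pass, had log2 fold changes of 0.00 and 0.26, and Nfkb1, named after its value was seen, fell (-0.64, edgeR adjusted p = 4.2e-05). From D25 to D30 edgeR called 0 of the 10, with an unadjusted p below 0.05 for 4.

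Of 16 genes of the matrix around Cd44 and Timp1, 13 were tested from D20 to D30, of which 4 rose, 2 fell and 7 did not pass, with a median of 0.11 against 0.10 over all tested annotated genes. Without Timp4, which entered through D30 alone, 3 of 12 rose. The other 3 tissue inhibitors of metalloproteinases rose: Timp2 from 10.9 ± 1.75 to 43.5 ± 13.5 normalized CPM (edgeR adjusted p = 5.4e-09), Timp3 from 31.6 ± 10.3 to 105 ± 35.1 (edgeR adjusted p = 0.00017) and Timp4, with at most 1 read per organoid at D20, to 3.23 ± 2.60 (edgeR adjusted p = 1.2e-06). Mmp2, a gelatinase, fell (-1.58, edgeR adjusted p = 2.8e-05). The sheddases Adam10 (0.11) and Adam17 (-0.16) did not pass, with adjusted p-values of 0.404 and 0.289.

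Of the 7 further genes that the study named for gliosis and neuroprotection, a choice from the literature combined with its results on these organoids and so no independent evidence of their direction, 5 were tested from D20 to D30, and 2 rose. These were Bdnf, a neurotrophin (2.14, edgeR adjusted p = 9.8e-05), and Lifr, the leukaemia inhibitory factor receptor (0.89, edgeR adjusted p = 5.8e-07). Cntf entered through D30 alone, and without it 2 of 4 rose. Egfr (0.05) and Hbegf (1.07) did not pass, with adjusted p-values of 0.898 and 0.0163.

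**Figure D3:**
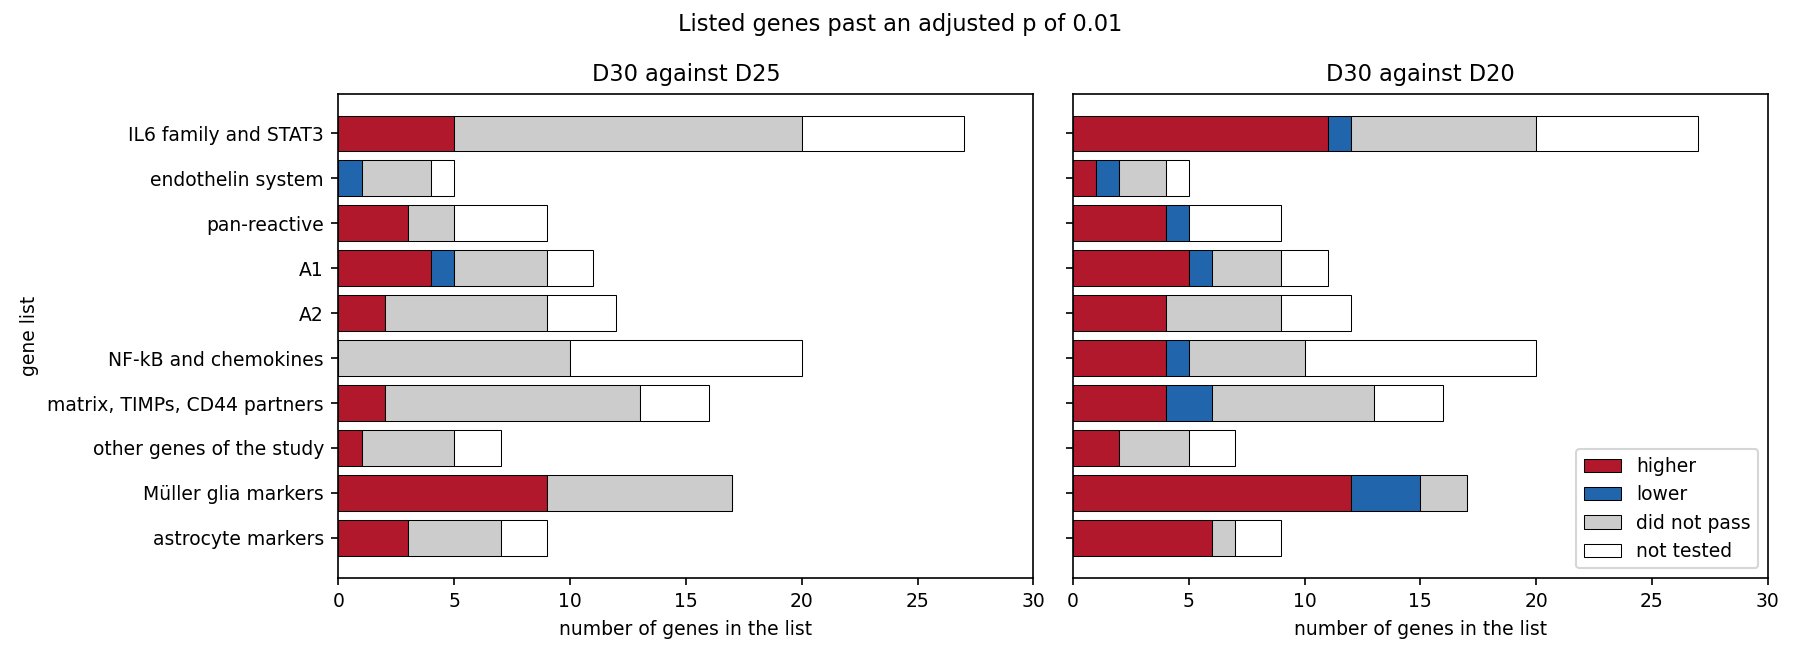
Number of genes (horizontal axis) in 10 gene lists (vertical axis) that were higher, lower, not past an edgeR adjusted p of 0.01 or not tested, for D30 against D25 and D30 against D20. Of the 27 genes of the interleukin-6 family and STAT3 list 11 were higher at D30 than at D20, and of the 17 Müller glia markers 12 were.

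Markers of the cells that can carry these genes moved over the same days. Of 17 Müller glia markers 12 rose, 3 fell and 2 (Glul, 0.44, and Sox2, 0.08) did not pass from D20 to D30, led by Abca8a (5.06), Aqp4 (4.05), Kcnj10 (3.28) and Slc1a3 (3.07), with edgeR adjusted p-values of 4.9e-11, 2.3e-08, 9.8e-09 and 4.3e-13. The 3 that fell, named after their values were seen, were Dkk3 (-1.15), Sox9 (-1.13) and Hes1 (-0.67), with edgeR adjusted p-values of 1.6e-08, 2.7e-05 and 0.0013, and Dkk3 alone went from a mean of 649 normalized CPM at D20 to 292 at D30. The summed level of all 17 ranged from 1473 to 1699 normalized CPM at D20, 1339 to 1525 at D22, 1636 to 2028 at D25 and 2278 to 5669.7 at D30, and none was at 0. Apoe weighs heavily in the sum, with the largest base mean of the 17 (6826, and 3172 over D20 to D25). Gfap as a percentage of that sum had a median of 0.323 at D20 and 0.294 at D22, which became 5.51 at D25 and 17.6 at D30, with ranges of 1.39 to 6.95 at D25 and 4.99 to 47.9 at D30. Stat3 as a percentage of the sum stayed between 1.53 and 5.08 in all organoids. The part of the number of Müller glia in the changes was not tested.

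Of 9 astrocyte markers 7 were tested and 6 rose from D20 to D30, or 5 of 6 without S100b, which entered through D30 alone, among them S100b (5.96), Aldh1l1 (3.94), Pdgfra (3.09) and Gja1 (2.96), with edgeR adjusted p-values of 1.4e-06, 0.00028, 2.8e-09 and 7.5e-06, while Fgfr3 did not pass (0.50, adjusted p = 0.3). Their summed level ranged from 481 to 575 normalized CPM at D20, 640.2 to 786 at D22, 781 to 897 at D25 and 716 to 1897 at D30. Slc1a2 weighs most heavily in this sum, with a base mean of 9862 against 1196 for Aldoc, the next. The sum therefore follows Slc1a2 more than the other markers. Pax2, a defining gene of retinal astrocytes, had at most 6 reads in any D30 organoid and 0 in 2 of them, and Gjb6 at most 41. Most of these markers are shared with mature Müller glia, and the part of astrocytes in the changes was not tested.

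Microglia, which would be the other source of inflammatory genes, were barely counted. Of 12 microglial markers 1 was tested, 9 never exceeded 10 reads, Tyrobp had 0 reads in all organoids, and Ptprc, C1qb and C1qc had 0 reads in all D30 organoids. The sum of the list lay between 0.996 and 3.97 normalized CPM over all 24 organoids, and the tested marker, Cd68, did not pass (-0.30 from D20 to D30, edgeR adjusted p = 0.539).

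Mesenchymal markers rose in 5 of the 7 tested from D20 to D30, led by Col3a1 (4.08), Dcn (3.79), Col1a2 (3.39) and Postn (2.49), with edgeR adjusted p-values of 0.00081, 0.00043, 3.3e-06 and 1.6e-05, and their sum ranged from 10.95 to 30.6 normalized CPM at D20 and from 40.5 to 267 at D30. Among 5 tested oligodendrocyte markers 3 rose and 1 fell, of which 2 that rose entered through D30 alone, among 4 tested endothelial markers 2 rose and 2 fell, of which 1 that rose entered in that way, and among 5 tested pigment cell markers 1 rose and 1 fell. Of the 8 photoreceptor markers 7 rose and all 8 progenitor markers fell, and of the 8 retinal markers 2 rose and 5 fell. The retinal and photoreceptor lists share Crx, Rcvrn and Nrl, and the 2 retinal markers that rose were Rcvrn and Nrl. Of 9 immediate early and heat shock genes, which respond to handling, 2 rose (Atf3, 1.71, and Fos, 1.04) and 2 fell (Dusp1, -0.74, and Jun, -0.38), with edgeR adjusted p-values of 1.2e-05, 0.0029, 0.0098 and 0.0044.

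**Figure D4:**
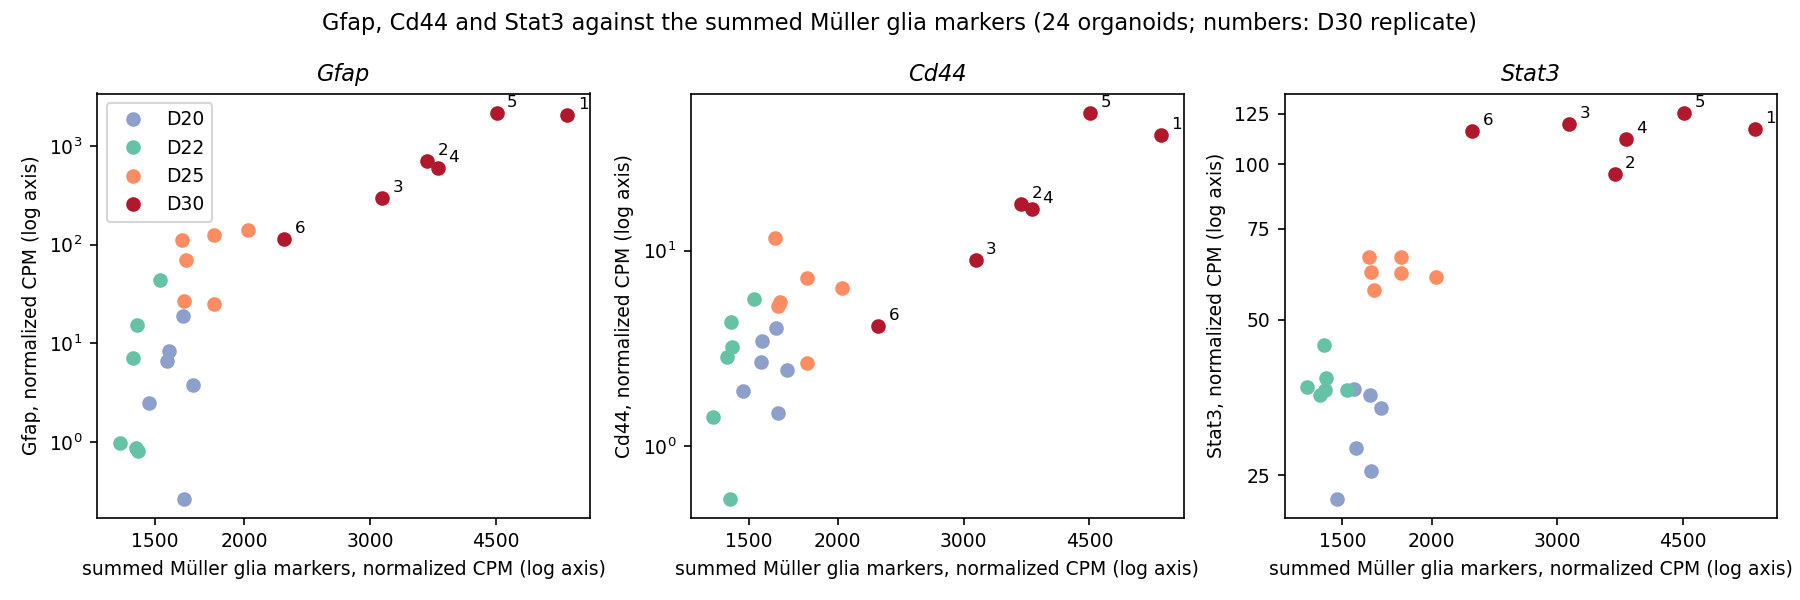
Normalized CPM of Gfap, Cd44 and Stat3 (vertical axes, logarithmic) against the summed normalized CPM of 17 Müller glia markers (horizontal axis, logarithmic) in 24 organoids coloured by timepoint, with D30 replicate numbers printed. Among the D30 organoids Gfap and Cd44 are lowest in replicate 6, where the sum is 2278, and highest in replicates 5 and 1, where it is 4513 and 5669.7, while Stat3 stays between 95.6 and 126.

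The 6 organoids of D30 differed far more for some of these genes than for others. The SD of log2 CPM between them was 1.63 for Gfap, 1.42 for Ednrb, 1.33 for Cd44 and 0.92 for Serpina3n, where the median over the tested annotated genes was 0.31. Those values exceeded the SD of 99.1%, 98.4%, 98.0% and 92.8% of the annotated genes. The SD was 0.75 for Edn2, whose counts are low, 0.22 for Socs3 and 0.14 for Stat3, the last above 10.2% of the genes. The highest D30 organoid thus held 19.0 times the Gfap of the lowest, 17.9 times the Ednrb and 12.4 times the Cd44, but 1.48 times the Socs3 and 1.31 times the Stat3.

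Gfap was uneven at the earlier timepoints too, with an SD of log2 CPM of 1.92 at D20, 2.38 at D22 and 1.11 at D25. The SD of Ednrb was 0.21 at D20, 0.55 at D22 and 0.76 at D25, below that of D30 at each timepoint, and for Cd44 it was 0.50, 1.14 and 0.68. The SD of Stat3 was 0.29 at D20, 0.12 at D22 and 0.08 at D25. No test of the difference between these spreads was made.

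The same organoids were high and low for several genes at D30. In order of replicate number Gfap was at 2034, 696, 295, 592, 2163 and 114 normalized CPM, Ednrb at 385, 182, 70.9, 138, 162 and 21.5, and Cd44 at 38.9, 17.3, 8.98, 16.4, 50.7 and 4.10. Serpina3n was at 41.6, 23, 10.5, 17.8, 55.4 and 13.6. Replicates 1 and 5 held the highest 2 values of Gfap, Cd44 and Serpina3n, replicate 1 the highest of Ednrb, and replicate 6 the lowest of Gfap, Ednrb and Cd44, while Serpina3n was lowest in replicate 3. Edn2 was lowest in replicate 1 and highest in replicate 6. Stat3, at 117, 95.6, 120, 112, 126 and 116, and Socs3, at 8.11, 7.65, 9.56, 8.74, 10.8 and 11.3, were both lowest in replicate 2, and they were highest in replicates 5 and 6, respectively.

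Several summed marker levels differed between the same 6 organoids. The Müller glia sum in order of replicate number was 5669.7, 3608, 3119, 3738, 4513 and 2278 normalized CPM and the astrocyte sum 1897, 1458, 1053, 1149, 1523 and 716. Both were highest in replicate 1 and lowest in replicate 6, as Ednrb was. Single markers could run otherwise, and Rlbp1, the retinaldehyde-binding protein of Müller glia, was at 100.3, 99.9, 185, 143, 143 and 124 normalized CPM, lowest in replicates 2 and 1 and highest in replicate 3. The mesenchymal sum was highest in replicate 5 (267) and lowest in replicate 3 (40.5), as Serpina3n was, and the oligodendrocyte sum was highest in replicate 1 (124) and lowest in replicate 6 (18.1). The photoreceptor sum was lowest in replicate 1 (3821), where Edn2 was lowest, and lay between 5082 and 6841 in the others. It was highest in replicate 5, whereas Edn2 was highest in replicate 6. The retinal sum (1301 and 2204) and the endothelial sum (136 and 228) were lowest in replicate 1 and highest in replicate 6, as Edn2 was. The retinal list shares Crx, Rcvrn and Nrl with the photoreceptor list. Kdr weighs most heavily in the endothelial sum, with a base mean of 3446 against 87.3 for Flt1, the next. The endothelial markers Pecam1 (11.9) and Cdh5 (0.588) were scarce, so this sum mostly follows Kdr. The sum of immediate early and heat shock genes lay between 147 and 243 and was highest in replicate 4, and the share of reads outside every feature lay between 35.0% and 41.6%. The part of cell composition or of tissue handling in the spread of the gliosis genes was not tested.

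**Figure D5:**
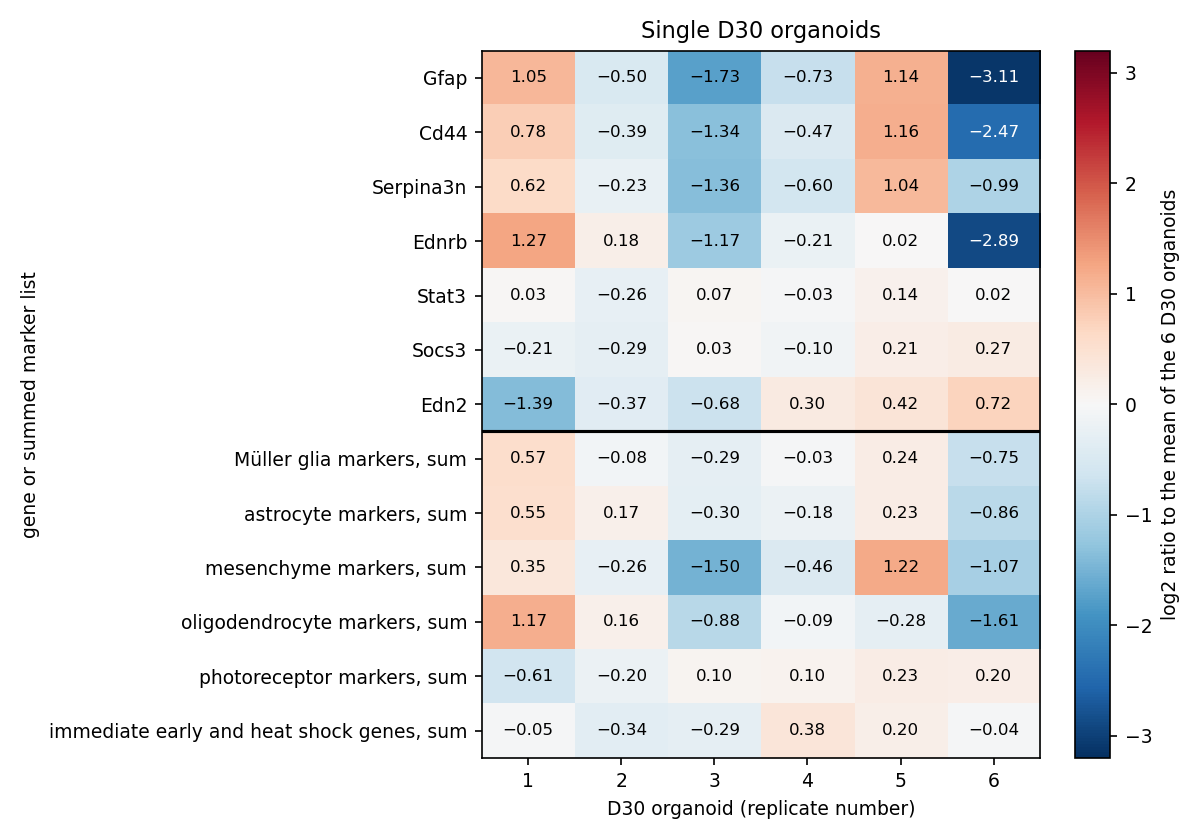
Log2 ratio of each D30 organoid (horizontal axis, replicate number) to the mean of the 6 D30 organoids for 7 genes and 6 summed marker lists (vertical axis), with the ratio printed in each cell. Gfap runs from -3.11 in replicate 6 to 1.14 in replicate 5 and Stat3 from -0.26 to 0.14, while the Müller glia sum runs from -0.75 to 0.57.

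The genes whose deviations from the timepoint mean were most like those of each gene were sought among 10854 annotated genes over the 24 organoids, as a description. The points share library, depth and the make-up of the same organoid, and each r is among the highest of 10854, a selection that alone raises it. For Gfap they included Thrsp (Pearson r = 0.913) and Sparcl1, a matrix protein of astroglia (0.874). Sparcl1 went from 17.7 ± 12.1 normalized CPM at D20 to 659 ± 463 at D30. For Ednrb they were Plpp3 (0.936), the kinase gene Fyn (0.934) and Slc4a4, a bicarbonate transporter (0.925). For Cd44 they were Paqr8 (0.850), the protease gene Capn2 (0.842) and Sfxn5 (0.831), and for Serpina3n Ahnak (0.857), the actin-binding gene Cald1 (0.825) and Rhoq (0.813).

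The nearest genes of Stat3 and Socs3 were less close. For Stat3 they were Mfn2, a gene of mitochondrial fusion (r = 0.803), Pi4k2a (0.719) and Lnx2 (0.715), and for Socs3 Daglb (0.767), Tbrg4 (0.767) and Smug1, a DNA repair enzyme (0.714). For Edn2, whose few reads limit any likeness, they were Lmbr1l (0.671), 6430571L13Rik (0.632) and Pde6c, a phosphodiesterase subunit of cones (0.608). Without the D30 organoids these values were 0.596, 0.301 and 0.536. Of the 6 gliosis genes with a base mean of 100 or more, none was among the 3 nearest of another.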

How the data were processed

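Whole single organoids were sequenced as strand-specific, ribosome-depleted RNA libraries. The authors trimmed the reads with cutadapt (1.5), aligned them with hisat2 to GRCm38/mm10, assembled new transcripts with StringTie (1.3.3) and counted reads per gene with htseq-count (0.6.1). The deposited values are these raw counts per feature, without normalization. The strand setting of the counting is not given in the sources used here.

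Groups and replicate numbers came from the labels. Only features averaging 10 or more normalized counts were used (16253 annotated genes and 30696 assembled loci). After TMM scaling, all 24 organoids entered 1 edgeR quasi-likelihood fit (4.0.16, R 4.3.3), with Benjamini-Hochberg adjustment over 46949 features and a threshold of 0.01. The SE was derived from the F statistic. The spread and likeness used log2 CPM with a prior count of 2. DESeq2 (1.42.0), other filters, scalings and fits were alternatives. Symbols and coordinates came from GENCODE on GRCm38. The members and all lists were chosen with earlier results of these data known. From each list the text names up to 4 genes past the threshold from D20 to D30, by size, and up to 2 of the best expressed that did not pass, and for each tested member its 3 likest genes of base mean 100 or more. Some genes that these rules select are not reported here. In simulated counts for D30 against D25 (45794 features) edgeR recovered 3 of 98 changes of 1 log2 unit and 74 of 92 of 2 log2 units, with 0 false calls, so small changes can be missed. Every simulated feature had the same spread, unlike the genes described here, so these rates do not carry over to single genes.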

Additional observations from a re-analysis of the deposited data

Results flagged for a closer look

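In 33 groups of 6 organoids with more than 3 reads in some organoid, 1 organoid stood far from the other 5 in 6 cases. Chance gives about 1 in 20 for normally distributed values, which CPM need not be, so no excess is claimed. All 6 cases are the highest value of their group. In the following, the nearest other organoid is given in parentheses, as normalized CPM. Gfap was high in D22 replicate 6 at 44.2 (15.4), and Stat3 in D22 replicate 3 at 44.6 (38.5). Socs3 was high in D25 replicate 1 at 6.95 (5.62). Edn2 stood at 0.244 in D25 replicate 6 (0.0594), which is 4 reads against 1. Serpina3n was high in D20 replicate 1 at 5.24 (1.56) and in D25 replicate 2 at 20.4 (7.58). The 6 cases lie in 6 different organoids, and none is at D30.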

How the results depend on the processing

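The number of genes called from D22 to D25 was 1 and became 3 at an adjusted p below 0.05, 3 without a filter on low counts and 2 with the replicate number as a block, and from D20 to D22 it was 0 and became 1 (Ednrb) in a fit of the compared timepoints alone. With 1 organoid left out the number called ranged from 1 to 2 from D22 to D25, from 2 to 5 from D25 to D30, from 2 to 3 for D25 against D20, from 5 to 7 for D30 against D22, from 5 to 6 for D30 against D20 and from 5 to 7 in the joint test, and stayed at 0 from D20 to D22. The 2 from D25 to D30 came without D30 replicate 5, and the 2 for D25 against D20 without D25 replicate 2 or any of D20 replicates 2 to 6. Of the log2 fold changes under other settings 258 kept their direction and side of the threshold, 7 lost and 7 gained a call, and 1 turned, Ednrb in D25 against D20 without the filter (0.0147). Values that turned without 1 organoid had not passed the threshold: from D20 to D22 Gfap ranged from -0.44 to 1.42, Cd44 from -0.12 to 0.37 and Serpina3n from -0.52 to 0.83, Socs3 from D22 to D25 from -0.13 to 0.0521, and Ednrb in D25 against D20 from -0.24 to 0.14. The cause was not tested. Scaling on annotated genes alone lowered the log2 fold changes of D30 against D22 by a median of -0.18 and of D30 against D20 by -0.13, and with it Cd44 from D25 to D30 (adjusted p = 0.0107) and Socs3 from D22 to D30 (0.0218) were not called. Samples with the same replicate number did not deviate together (mean correlation -0.0067 over 36 pairs, against 0.0013 for other pairs), so no pairing by number was seen. Whether organoids of the same number shared a starting aggregate or handling was not tested. With the block Serpina3n was called from D22 to D25 (adjusted p = 0.0093), and Cd44 from D25 to D30 (0.0316) and Socs3 from D22 to D30 (0.0151) were not. Below 3 reads per library, as for Ccl2 and most of Lcn2, no change can be seen at this depth.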
